A study of Mus musculus with 16 samples.

Results

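Whole liver of cirrhotic mice given adipose tissue-derived stem cells (ADSC) was compared with whole liver of cirrhotic mice given phosphate-buffered saline (PBS). The samples were those labelled liver with stem cell treatment (numbers 7 to 10) and liver with PBS treatment (numbers 11 to 14), which makes 8 of the 16 arrays of the series, 4 a side. All mice in both groups were female C57Bl/6 animals, and all were fed an atherogenic high-fat diet for 40 weeks to produce cirrhosis. The ADSC came from the inguinal fat of GFP-transgenic donor mice and were expanded in culture, and 100000 cells were injected 2 times, with an interval of 2 weeks, below the splenic capsule. Livers were taken 2 weeks after the last injection. The labels do not say how often PBS was injected, nor that each array is a separate animal, so every p-value measures the spread between samples, which may in part be technical. The RNA extraction text describes inflammatory cells and blood and not liver. The other 8 arrays hold hepatic inflammatory cells of the same treatments and are used here only where the liver effect is set against theirs.

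Cirrhosis is the end stage of chronic liver injury, in which hepatocytes are lost, stellate cells deposit collagen and leukocytes persist in the tissue. Neutrophils are short-lived leukocytes that carry their proteases and antimicrobial proteins in granules made at successive stages in the bone marrow. Azurophil granules form first, specific and gelatinase granules later, and calprotectin and the chemotactic receptors mark the mature cell. Hepatocytes answer interleukin-6 and interleukin-1 by secreting acute phase proteins into the plasma. Adipose-derived stem cells are mesenchymal cells that are studied for their effects on inflammation and repair in the liver.

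Levels are the log2 processed signal after subtraction of each array's 75th percentile, so a difference of 1 is a factor of 2 for that probe, and levels of different genes cannot be compared with each other. The labelled tissue was checked against marker genes. All 5 hepatocyte markers, Alb, Ttr, Apoa1, Serpinc1 and Hnf4a, were well above background on all 8 liver arrays, as were 3 of 3 stellate cell, 3 of 3 endothelial, 3 of 3 cholangiocyte, 3 of 3 T cell and 5 of 7 neutrophil markers. The 4 exocrine pancreas markers Cela3b, Cpa1, Prss2 and Cpb1 lay in the background on all 8 liver arrays. All 3 adipose stromal cell markers were well above background on all 8 liver arrays, PBS included, so these genes do not separate injected cells from resident ones. Between 51.6% and 62.2% of spots were well above background, and the 75th percentile of the signal ran from 311.6 to 551.9, with PBS 12 the brightest array. Array pairs correlated at 0.958 to 0.979 within PBS, 0.980 to 0.990 within ADSC and 0.956 to 0.986 between the groups.

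The scan day was largely shared with the treatment. ADSC 8 and ADSC 10 were scanned on day 1, PBS 13, ADSC 7 and ADSC 9 on day 2, and PBS 11, PBS 12 and PBS 14 on day 3. Only day 2 holds both treatments, and values within that day (PBS 13 against 2 ADSC arrays) are given below for the main gene lists and genes. A fit with scan day as a term takes its estimate from day 2 alone and is no separate check. Only slide 2 holds both treatments, with PBS 13 and ADSC 7. A fit with slide as a fixed block therefore gives ADSC 7 minus PBS 13, whatever the other arrays show. PBS 12 stood apart in many of the groups described below, and the lists and genes that rest most on it are also given without it.

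No single gene passed the adjusted threshold in the liver. Of 17345 genes tested with limma, 0 (0%) had a Benjamini-Hochberg adjusted p under 0.05, and 799 (4.61%) had an unadjusted p under 0.05. Those 799 were 451 higher after ADSC (2.6% of genes tested) and 348 lower (2.01%). The smallest adjusted p was 0.266, shared by 7 genes: Nnmt, BC060276, Amer2, Gda, Trem1, Il20rb and Krt20. Amer2 and Trem1 were among 19 genes that were well above background on PBS arrays only and so entered the fit through the group in which they were high, which makes their p no independent evidence of a difference. Differences were small for most genes, with a median over all genes of 0.04 and 223 genes beyond 1 log2 unit in either direction, 72 higher and 151 lower. In 288 genes (1.66%) all 4 ADSC arrays lay above all 4 PBS arrays, and in 210 (1.21%) all 4 lay below. With array weights in the limma fit 18 genes passed, 5 higher and 13 lower, and with the spread estimated over all 16 arrays 9 passed, 2 higher and 7 lower. Ngp, Ltf, S100a8 and S100a9, described below, passed under both settings.

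**Figure D1:**
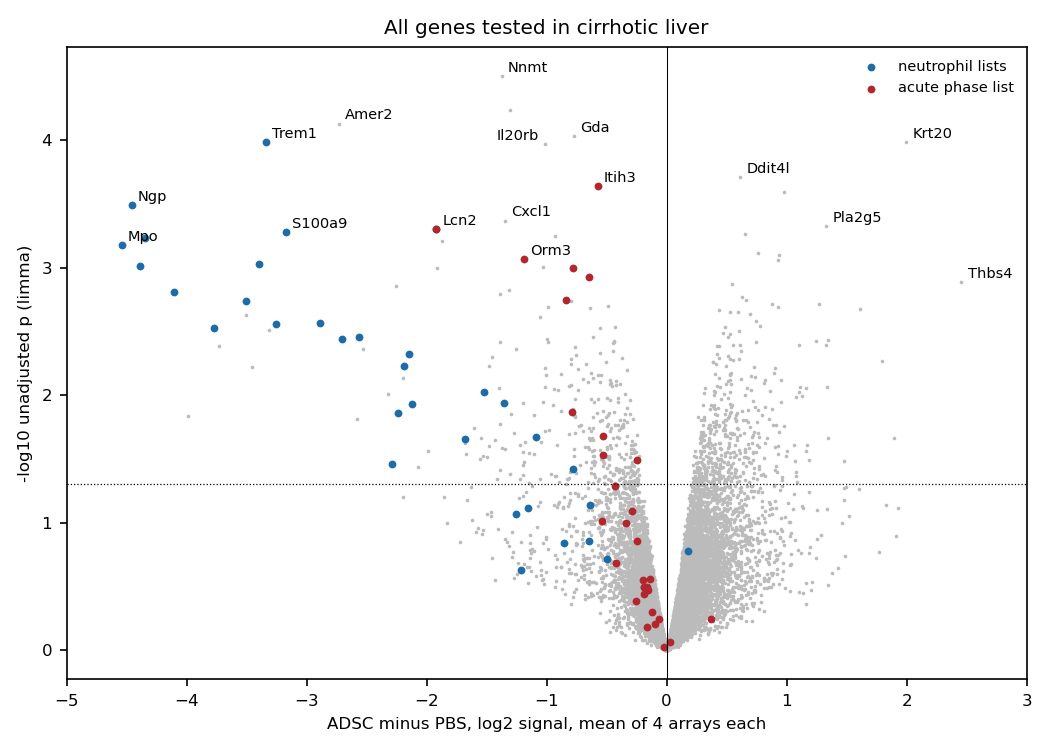
Difference between ADSC and PBS livers (x axis, log2) against -log10 of the unadjusted limma p (y axis) for the 17345 genes tested, with the neutrophil lists in blue, the acute phase list in red and the unadjusted threshold as a dotted line. The blue points reach down to -4.54 (Mpo) and 33 of the 34 lie left of 0, as do 28 of the 30 red points, while the largest difference to the right that is named is 2.46 (Thbs4).

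Neutrophil transcripts were the group with the largest differences, and they were lower in ADSC livers. Of 45 genes on 3 neutrophil lists, 40 were on the array and 34 were bright enough to test. Of these 34, 33 had estimates below 0 against 39.8% of all genes, 25 (73.5%) were lower at an unadjusted p under 0.05 against 2.01% of all genes, and in 19 (55.9%) the ADSC arrays all lay below the PBS arrays against 1.21%. None passed after adjustment. The list medians were -3.24 for azurophil granule genes (6 tested), -2.54 for specific and gelatinase granule genes (12 tested) and -1.60 for calprotectin and mature surface genes (16 tested), beside 0.04 over all genes. The azurophil median was -0.64 over the 3 members well above background on all arrays, and without PBS 12 it was -1.70 over the 4 members that still entered the fit and -2.50 over the same 6. Of the 34 genes, Ms4a3, Prtn3 (a granule protease) and Trem1 entered through the PBS arrays alone, and among the other 31 there were 22 (71%) lower at an unadjusted p under 0.05 against 1.95% of all genes above background in both groups, and 16 (51.6%) without overlap against 1.15%. In whole liver RNA, fewer neutrophils and less of these RNAs per neutrophil cannot be told apart.

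Mpo, the myeloperoxidase of azurophil granules, lay at 1.95, 4.87, 1.15 and 3.40 in PBS 11 to 14 and at 0.02, -1.73, -2.75 and -2.34 in ADSC 7 to 10. The difference was -4.54 ± 0.87 (SE, n = 4 each, limma adjusted p = 0.577), a factor of 23.3 on average. The groups did not overlap, yet the PBS arrays alone were far apart, with PBS 12 highest and PBS 13 lowest. Ctsg, the granule protease cathepsin G, was lower by a similar amount (-3.77 ± 0.92), with PBS arrays at 0.24, 3.63, -0.89 and 1.77 and ADSC arrays at -1.63, -2.76, -3.77 and -2.19. Ms4a3, a membrane protein of granulocyte progenitors, was well above background on 4 of 4 PBS arrays and on 0 of 4 ADSC arrays, and was at least 5.32-fold lower after ADSC. Its ADSC 7 value (-3.99) stood above the other ADSC values, which ran from -5.82 to -5.51. Elane, the gene of neutrophil elastase, was well above background on only 2 PBS arrays and on 0 ADSC arrays and was not tested.

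Among specific granule genes, Ngp, a cathelicidin-related granule protein, was at 0.78, 3.88, 0.66 and 2.06 in PBS livers and at -1.28, -2.41, -3.23 and -3.54 in ADSC livers, a difference of -4.46 ± 0.77 (limma adjusted p = 0.51). Every PBS value was above 0 and every ADSC value below 0. Ltf, which encodes the iron-binding lactoferrin, differed by -4.35 ± 0.81, with PBS arrays at 1.28, 4.46, 0.68 and 2.62 and ADSC arrays at -0.80, -1.99, -2.81 and -2.75. Camp, the cathelicidin antimicrobial peptide, differed by -4.39 ± 0.89 and was well above background on 3 of 4 ADSC arrays. The neutrophil collagenase Mmp8 and the gelatinase Mmp9 differed by -2.89 ± 0.69 and -3.25 ± 0.78, again without overlap. These 2 genes also stood on the list of 24 matrix proteases, TIMPs and crosslinking enzymes tested, as its only members with an unadjusted p under 0.05. Among all genes 4.61% had such a p and 2.01% were lower with it.

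The calprotectin subunits S100a8 and S100a9 were well above background on all 8 arrays. S100a9 lay at 7.65, 8.80, 5.96 and 8.05 in PBS livers and at 5.09, 4.03, 3.72 and 4.92 in ADSC livers, a difference of -3.18 ± 0.59 (limma adjusted p = 0.557). S100a8 differed by -3.40 ± 0.68, from 5.43, 7.38, 4.01 and 6.20 in PBS livers to 3.02, 1.94, 1.48 and 3.00 in ADSC livers. Neither gene's groups overlapped, and in both PBS 12 was highest and PBS 13 lowest of the PBS arrays. Trem1, a receptor that amplifies myeloid inflammatory signalling, ran otherwise: PBS values were -1.18, -1.56, -0.60 and -2.66 with PBS 13 highest, ADSC values were -4.66, -5.84, -4.80 and -4.06, and no ADSC array was well above background. It was at least 4.15-fold lower. Stfa2l1, a stefin that inhibits cysteine proteases, differed by -3.50 ± 0.78.

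**Figure D2:**
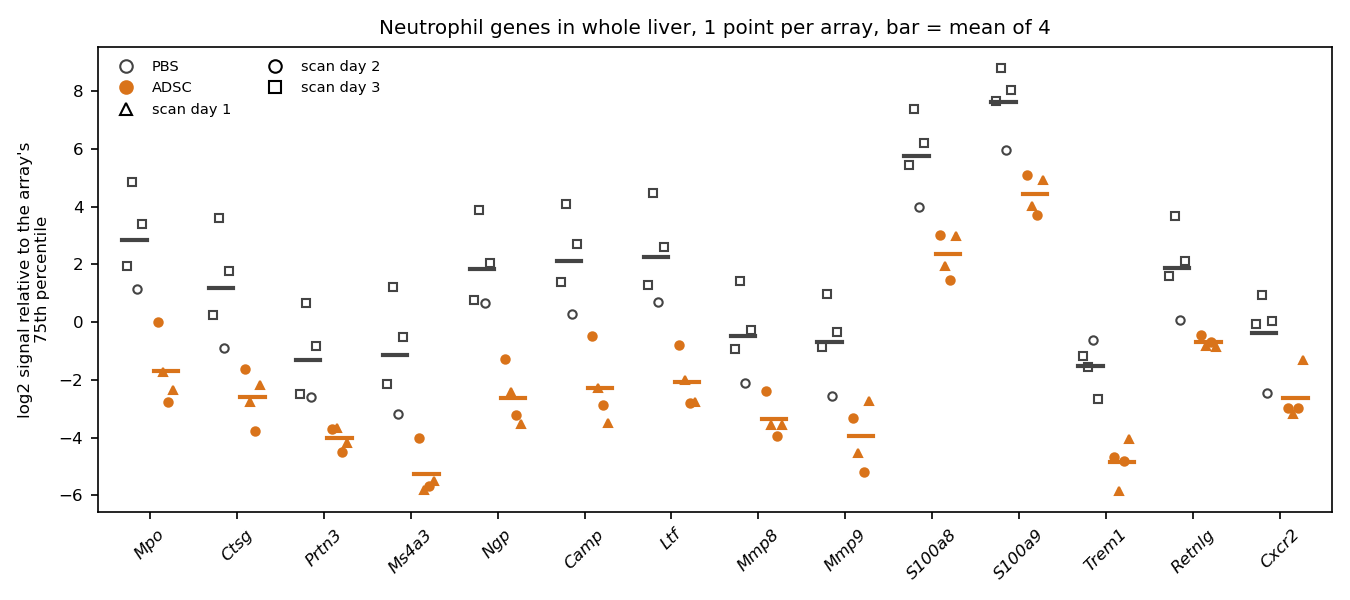
Level of 14 neutrophil genes in each of the 8 liver arrays (y axis, log2 signal with the array's 75th percentile subtracted), PBS in grey and ADSC in orange, with symbols for scan day and bars for the mean of 4. In every gene shown except Cxcr2 the lowest PBS point lies above the highest ADSC point.

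The size of the neutrophil difference varied with the arrays used, while its direction was the same for most members. Averaged over the 34 genes, PBS 11 to 14 had levels of 1.47, 3.14, 0.46 and 2.04, and ADSC 7 to 10 had levels of -0.04, -0.56, -0.90 and -0.33. PBS 12 was the highest PBS array in 31 of the 34 genes and PBS 13 the lowest in 29. Without PBS 12 the median over the same 34 genes was -1.62 instead of -2.17. On scan day 2, PBS 13 lay above both ADSC arrays in 25 of the 34 genes (33.6% of all genes did), 19 of which are those without overlap on all arrays, where this could not be otherwise, and the median difference was -0.74. Within that day the 3 list medians were -1.58, -1.22 and -0.45. With scan day as a term in the fit, no member of the azurophil list, 1 of the specific granule list and 1 of the mature list had an unadjusted p under 0.05. Over all genes 6.83% had such a p in that fit, so these counts are near the share of all genes. With slide as a fixed block, which is ADSC 7 minus PBS 13, the 3 medians were -0.77, -0.79 and -0.13. The part of scan day and slide in the difference was not tested beyond these values.

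Acute phase genes were also lower, by smaller amounts and with less spread. Of 30 members tested, 28 had estimates below 0, 10 (33.3%) were lower at an unadjusted p under 0.05 against 2.01% of all genes, and 8 (26.7%) lay without overlap below PBS against 1.21%. None passed after adjustment, and the median was -0.25. The list mean was 5.87 ± 0.18 in PBS livers and 5.49 ± 0.07 in ADSC livers (SD, n = 4 each). The 8 members without overlap were Itih3, Lcn2, Orm1, Orm2, Orm3, Lrg1, Saa3 and C4b.

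Itih3, a heavy chain of the inter-alpha-trypsin inhibitor secreted by hepatocytes, was at 7.15, 7.07, 7.06 and 6.96 in PBS livers and at 6.46, 6.55, 6.53 and 6.40 in ADSC livers. The difference of -0.58 ± 0.09 (limma adjusted p = 0.441) amounts to a factor of 1.49, and all ADSC values lay below the lowest PBS value, with a narrow range in both groups. Orm3, an orosomucoid or alpha-1-acid glycoprotein gene, was at 3.58, 4.29, 3.33 and 3.09 after PBS and at 2.29, 2.34, 2.52 and 2.38 after ADSC, a difference of -1.19 ± 0.24 (limma adjusted p = 0.601). Orm1 and Orm2, the other members of that family and named for the overlap after their values were seen, differed by -0.78 ± 0.16 and -0.84 ± 0.19. The Orm genes are near-identical, so their probes may read each other's transcripts. Lrg1, a leucine-rich plasma glycoprotein, was likewise named after its values were seen and was at 7.06, 7.34, 7.05 and 6.75 against 6.29, 6.47, 6.41 and 6.44, a difference of -0.65 ± 0.14. Saa3, an inducible serum amyloid A, and C4b, a complement component, were named on the same ground and differed by -0.53 ± 0.20 and -0.25 ± 0.10.

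Lcn2, the siderophore-binding lipocalin 2, stood on both the acute phase and the specific granule list, since hepatocytes and neutrophils both make it. It lay at 5.82, 6.78, 5.24 and 5.73 in PBS livers and at 4.45, 4.03, 3.28 and 4.12 in ADSC livers, a difference of -1.92 ± 0.35 (limma adjusted p = 0.557). PBS 12 was highest here too, and the lowest PBS value, 5.24, was above the highest ADSC value, 4.45. Socs3, a feedback inhibitor of interleukin-6 signalling, had PBS values of 2.76, 3.53, 2.22 and 2.89 and ADSC values of 2.08, 2.31, 1.84 and 2.00, a difference of -0.79 ± 0.25 with overlapping groups.

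Within scan day 2 the acute phase list did not shrink. Its median there was -0.41, and PBS 13 lay above both ADSC arrays in 25 of the 30 members, against 33.6% of all genes. The 8 members without overlap are fixed to be among the 25. Genes of hepatocyte metabolism, described below, were also lower on that day. Of 245 genes on their 12 lists, 186 had day 2 estimates below 0, with a median of -0.26. Lower values on scan day 2 were thus not particular to the acute phase list. Within that day Itih3 differed by -0.57, Orm3 by -0.93, Orm1 by -0.66, Orm2 by -0.62, Lrg1 by -0.70 and Lcn2 by -1.38. Without PBS 12 the median was -0.26 and 10 of 30 members were lower at an unadjusted p under 0.05, against 2.05% of all genes, and Saa3 differed by -0.34. With array weights the median was -0.11.

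**Figure D3:**
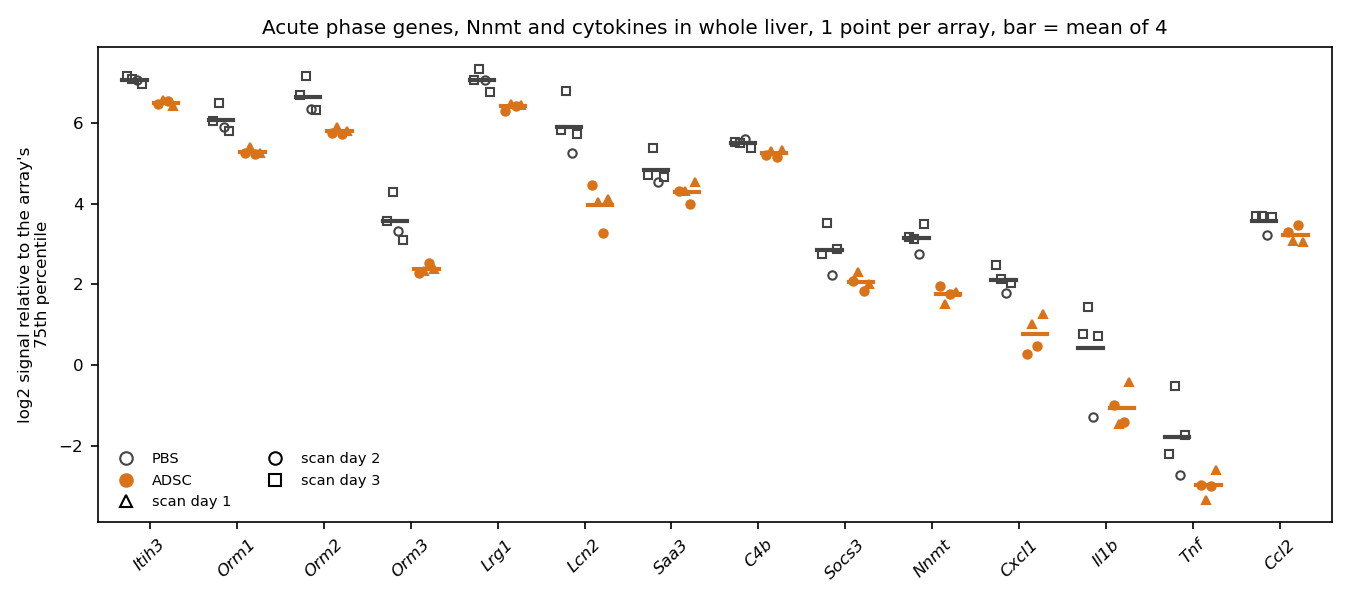
Level of acute phase genes, Nnmt and cytokines in each of the 8 liver arrays (y axis, log2 signal with the array's 75th percentile subtracted), PBS in grey and ADSC in orange, with symbols for scan day and bars for the mean of 4. The grey and orange points of Itih3, Orm1, Orm2, Orm3 and Lrg1 do not overlap, while those of Il1b, Tnf and Ccl2 overlap.

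The granule genes and the acute phase genes were lower together. Their promoters were therefore read for the recognition sequences of factors known to act in myeloid cells, in hepatocytes or in both. C/EBP factors drive granule genes in myeloid cells and acute phase genes in hepatocytes, and PU.1 drives myeloid genes. In the 250 bases before the transcription start, the C/EBP letters TTGCNNAA, searched on both strands, were in 13 of 24 acute phase genes with a promoter sequence (54.17%), in 8 of 30 neutrophil genes (26.67%), in 8.19% of tested genes and in 9.55% of all 27025 promoters. The PU.1 letters GAGGAAG were in 11 of the 30 neutrophil genes (36.67%) and in 2 of the 24 acute phase genes (8.33%), against 10.87% of tested genes. The STAT letters TTCNNNGAA were in 29.17% of acute phase and 20% of neutrophil genes, against 6.04% of tested genes. Matches of different motifs may overlap each other, and a match says only that the letters are there. Saa1 and Saa2, and likewise Orm2 and Orm3, have near-identical windows with the same C/EBP match, and Lcn2 counts in both sets. The shares are thus not of independent promoters. The RefSeq promoter sequences of the 4 neutrophil genes with the largest differences and of the 3 acute phase genes with the smallest p are shown, whether or not they hold a match, 5′ to 3′ on the gene's own strand, with C/EBP matches on either strand in capitals, from GRCm38.p6. Mpo is at chr11:87793534-87793783 (plus strand), Ngp at chr9:110419558-110419807 (plus strand), Camp at chr9:109849457-109849706 (minus strand), Ltf at chr9:111019042-111019291 (plus strand), Itih3 at chr14:30923588-30923837 (minus strand), Lcn2 at chr2:32387740-32387989 (minus strand) and Orm3 at chr4:63355908-63356157 (plus strand).
Mpo: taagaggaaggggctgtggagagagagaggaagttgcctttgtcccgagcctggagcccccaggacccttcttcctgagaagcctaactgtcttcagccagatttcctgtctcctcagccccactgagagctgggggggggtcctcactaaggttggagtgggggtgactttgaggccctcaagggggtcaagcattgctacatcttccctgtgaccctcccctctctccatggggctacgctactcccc
Ngp: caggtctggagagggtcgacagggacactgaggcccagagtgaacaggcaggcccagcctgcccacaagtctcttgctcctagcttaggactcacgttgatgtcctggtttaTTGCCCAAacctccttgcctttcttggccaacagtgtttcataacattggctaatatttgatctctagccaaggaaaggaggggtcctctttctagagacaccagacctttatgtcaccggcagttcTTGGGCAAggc
Camp: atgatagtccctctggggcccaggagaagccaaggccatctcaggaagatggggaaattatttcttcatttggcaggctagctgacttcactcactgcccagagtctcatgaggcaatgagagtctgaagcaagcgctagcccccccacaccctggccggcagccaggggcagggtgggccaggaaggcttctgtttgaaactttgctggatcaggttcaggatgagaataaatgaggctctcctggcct
Ltf: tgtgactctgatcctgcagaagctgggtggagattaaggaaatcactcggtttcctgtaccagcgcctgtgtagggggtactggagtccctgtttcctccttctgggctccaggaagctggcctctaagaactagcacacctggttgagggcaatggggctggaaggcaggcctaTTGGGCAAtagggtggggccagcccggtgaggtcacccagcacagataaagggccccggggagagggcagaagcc
Itih3: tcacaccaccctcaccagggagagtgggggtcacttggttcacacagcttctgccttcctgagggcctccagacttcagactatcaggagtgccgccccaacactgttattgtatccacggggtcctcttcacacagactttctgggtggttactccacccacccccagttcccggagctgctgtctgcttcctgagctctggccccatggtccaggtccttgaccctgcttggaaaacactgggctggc
Lcn2: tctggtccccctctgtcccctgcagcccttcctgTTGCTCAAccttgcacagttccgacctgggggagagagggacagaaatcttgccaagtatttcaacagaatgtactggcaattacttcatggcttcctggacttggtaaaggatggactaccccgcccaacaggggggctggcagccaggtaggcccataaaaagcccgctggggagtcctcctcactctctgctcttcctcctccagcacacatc
Orm3: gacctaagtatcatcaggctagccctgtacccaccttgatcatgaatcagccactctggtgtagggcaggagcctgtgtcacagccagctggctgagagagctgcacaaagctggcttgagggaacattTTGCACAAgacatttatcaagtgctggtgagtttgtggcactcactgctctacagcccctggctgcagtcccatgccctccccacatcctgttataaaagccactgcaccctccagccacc
The Ngp window holds 2 C/EBP matches, which begin 138 and 11 bases before the start, and those of Ltf, Lcn2 and Orm3 hold 1 each, which begins 75, 216 and 121 bases before the start. The windows of Mpo, Camp and Itih3 hold none.

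Among genes outside these lists, Nnmt had the smallest p of all genes tested. Nnmt encodes nicotinamide N-methyltransferase, a hepatic enzyme that uses the methyl donor S-adenosylmethionine. It was at 3.18, 3.14, 2.76 and 3.50 in PBS livers and at 1.97, 1.53, 1.77 and 1.82 in ADSC livers, a difference of -1.37 ± 0.17 (limma adjusted p = 0.266) or a factor of 2.59. The lowest PBS value was PBS 13, and within scan day 2 the difference was -0.89. Gda, the guanine deaminase, was tighter, at -1.31, -0.91, -1.10 and -1.11 against -1.89, -1.94, -1.89 and -1.78, a difference of -0.77 ± 0.11 that was -0.79 within scan day 2. Il20rb, a receptor subunit for interleukins of the IL-20 family, differed by -1.01 ± 0.15 without overlap. Amer2 was well above background on 4 of 4 PBS arrays and 0 of 4 ADSC arrays, and was at least 1.9-fold lower.

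Cytokines and chemokines had lower estimates in 17 of 21 members tested (median -0.36), 7 of them (33.3%) at an unadjusted p under 0.05 against 2.01% of all genes, and 1, Cxcl1, without overlap against 1.21%. Without PBS 12, 3 of 20 members were lower at an unadjusted p under 0.05, against 2.05% of all genes. Cxcl1, a neutrophil-attracting chemokine, was at 2.47, 2.15, 1.79 and 2.03 in PBS livers and at 0.29, 1.02, 0.49 and 1.27 in ADSC livers. It differed by -1.35 ± 0.24 (limma adjusted p = 0.557), and by -1.41 within scan day 2. Cxcl5, another ligand of the same receptor, spanned from -1.96 to 3.51 in PBS livers and from -4.35 to 0.14 in ADSC livers, and its difference of -3.99 ± 1.30 came with overlapping groups. Tnf and Il1b, the macrophage cytokines tumour necrosis factor and interleukin-1 beta, differed by -1.18 ± 0.43 and -1.48 ± 0.54, and Ccl2, a monocyte-attracting chemokine, by -0.35 ± 0.15. On scan day 2 Il1b and Ccl2 had differences of 0.09 and 0.15, and the list median was 0.09. Interferon response genes had lower estimates in 16 of 17 members (median -0.33), with 0 of 17 without overlap and a median of 0.09 on scan day 2.

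Macrophage and lymphocyte genes differed less than neutrophil genes. Monocyte and macrophage genes had lower estimates in 16 of 18 members (median -0.32) and Kupffer cell genes in 7 of 11 (-0.29), and in neither list did any member's groups separate. Both medians had the other sign on scan day 2 (0.32 and 0.22) and with slide as a fixed block (0.57 and 0.09), and without PBS 12 they were -0.17 and -0.41. Cd14, the lipopolysaccharide co-receptor, had the smallest p of the first list. It was at 3.83, 5.41, 2.53 and 3.85 in PBS livers and at 2.74, 2.32, 2.47 and 2.58 in ADSC livers, a difference of -1.37 ± 0.51 that was 0.08 on scan day 2, and PBS 12 held its highest value (-0.87 without that array). The scavenger receptor Marco and the lectin Clec4f, both Kupffer cell genes, differed by -1.23 ± 0.58 and -1.06 ± 0.77, each with its highest value in PBS 14. Lipid-associated macrophage genes leaned the other way, with higher estimates in 7 of 9 members (median 0.25). Their leading gene Gpnmb, a glycoprotein of lipid-laden macrophages, was at 3.37, 2.96, 3.75 and 3.19 in PBS livers and at 4.93, 4.19, 3.81 and 3.76 in ADSC livers (0.85 ± 0.28), without overlap. The medians of T cell genes (-0.02, 13 tested), cytotoxic and NK cell genes (0.05, 10 tested) and B and plasma cell genes (0.15, 11 tested) lay near that of all genes over the 8 arrays. On scan day 2 these 3 medians were 0.26, 0.36 and 0.40, and without PBS 12 they were 0.11, 0.08 and 0.42. Without PBS 12, 0 of 13, 1 of 10 and 3 of 10 members were higher at an unadjusted p under 0.05, against 2.44% of all genes. Cd22, an inhibitory co-receptor of B cells, was the only member of the T cell, NK cell and B cell lists whose groups did not overlap over all 8 arrays (0.53 ± 0.15). Over all genes 1.66% were higher and 1.21% lower without overlap, so 1 such member is near the share of all genes.

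Erythroid and platelet genes can report blood in the tissue. Of 15 erythroid genes 12 were on the array and 5 were bright enough to test. Their median was -0.48 over the 8 arrays, -0.53 on scan day 2 and -0.59 without PBS 12. Of the 5, 4 had estimates below 0 and 1 lay above, at 0.33. At an unadjusted p under 0.05, 3 were lower against 2.01% of all genes, and 2 were lower without overlap against 1.21%. Of 12 platelet genes 11 were on the array and 6 were tested (median -0.34, 0.23 on scan day 2 and -0.23 without PBS 12). Of the 5 erythroid genes, Slc4a1, the red cell anion exchanger, was at -2.57, -1.96, -2.39 and -1.87 in PBS livers and at -3.14, -4.47, -3.50 and -3.23 in ADSC livers, a difference of -1.39 ± 0.30 without overlap. It was well above background on 4 of 4 PBS arrays but on only 2 of 4 ADSC arrays. Bpgm, a red cell enzyme, differed by -0.33 ± 0.09, also without overlap. Ppbp, a platelet chemokine, differed by -1.55 ± 0.55 with overlapping groups. The part of blood content in the neutrophil difference was not tested.

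Scar genes did not differ beyond the spread between arrays. All 14 collagens tested had estimates above 0, where 39.8% of all genes lay below 0, but none reached an unadjusted p of 0.05 and in none were the groups separate. Within scan day 2, 9 of the 14 were higher and the median was 0.13, and without PBS 12, 12 of the 14 were higher with a median of 0.14. The list median was 0.24, and the list mean was 1.85 ± 0.17 in PBS livers and 2.08 ± 0.24 in ADSC livers (SD, n = 4 each). Col1a1 and Col3a1, the main fibrillar collagens of liver scar, differed by 0.28 ± 0.24 and 0.26 ± 0.29. Col1a1 was at 3.88, 3.00, 3.44 and 3.41 in PBS livers and at 4.33, 3.50, 3.49 and 3.54 in ADSC livers, where ADSC 7 was highest and the other 3 lay within the PBS range. Acta2, the smooth muscle actin of activated stellate cells, Timp1, an inhibitor of matrix proteases, and Tgfb1, the main fibrogenic cytokine, differed by -0.04 ± 0.15, -0.02 ± 0.24 and -0.07 ± 0.16 (limma adjusted p = 0.998 each). The sign of these differences near 0 changed with scan day, slide or a left-out array.

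Some stellate cell genes had higher levels in ADSC livers, none past the adjusted threshold. Of 18 stellate cell and myofibroblast genes tested, 4 were higher at an unadjusted p under 0.05 (2.6% of all genes) and 3 without overlap (1.66%), while the list median was 0.10. Estimates were above 0 in 12 and below 0 in 6, down to -0.71. On scan day 2 the list median was 0.21. Without PBS 12 it was 0.08, with 10 members higher and 8 lower, and 2 were higher at an unadjusted p under 0.05 (2.44% of all genes). Reln, the glycoprotein reelin, was at 1.54, 0.83, 1.82 and 1.37 in PBS livers and at 1.98, 2.09, 2.09 and 2.00 in ADSC livers (0.65 ± 0.20). Lrat, which stores retinol as its ester and marks quiescent stellate cells, differed by 0.58 ± 0.19, and Tpm2, a tropomyosin, by 0.36 ± 0.14. Itga8, an integrin subunit of hepatic stellate cells, was among the 10 genes with the smallest p of the higher ones, at 2.75, 2.61, 2.43 and 2.85 against 3.63, 3.31, 3.16 and 3.16 (0.66 ± 0.15). The matrix genes Sparc and Lum, which encode osteonectin and lumican, differed by 0.38 ± 0.16 and 0.35 ± 0.16, each with overlapping groups.

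The other higher genes with the smallest p had no common list. Krt20, an epithelial keratin, was at -1.78, -1.75, -0.91 and -2.18 in PBS livers and at 0.18, 0.64, -0.15 and 0.69 in ADSC livers, a difference of 2.00 ± 0.29 (limma adjusted p = 0.266) or a factor of 3.99. Ddit4l, a relative of the stress-induced mTOR inhibitor Ddit4, was tight in both groups, at 0.88, 0.91, 0.83 and 0.79 against 1.52, 1.58, 1.44 and 1.33 (0.61 ± 0.10). Thbs4, a matrix thrombospondin, had the largest difference of the higher genes without overlap, 2.46 ± 0.52, from -2.56, -3.37, -1.03 and -3.13 to 0.21, 0.64, -0.71 and -0.41. These 3 genes differed within scan day 2 by 0.93, 0.65 and 0.78. Flt3, the receptor of dendritic cell progenitors, differed by 1.80 ± 0.48, and was well above background on 2 of 4 PBS arrays and 4 of 4 ADSC arrays. Pla2g5, a secreted phospholipase, differed by 1.33 ± 0.24, Cdk5r2 by 0.65 ± 0.12, Fgf12 by 0.88 ± 0.20, the small proteoglycan gene Ogn by 1.32 ± 0.34 and the cytochrome P450 gene Cyp2c55 by 1.24 ± 0.31.

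Genes of hepatocyte metabolism were higher in estimate and overlapped in level. Of 245 tested genes on 12 lists of hepatocyte identity, zonation, drug, bile acid, sterol, lipid, glucose, amino acid and energy metabolism, 208 had estimates above 0, with a median of 0.17. In 202 of the 245, PBS 12 was the lowest PBS array. Averaged over the 245 genes, PBS 11 to 14 had levels of 3.60, 2.87, 3.72 and 3.42 and ADSC 7 to 10 had levels of 3.18, 3.65, 3.75 and 3.81. PBS 12 and ADSC 7 were the lowest of their groups and the groups overlapped. On scan day 2, which lacks PBS 12, 186 of the 245 estimates were below 0 and the median was -0.26. Without PBS 12, 132 of the 245 estimates over the other 7 arrays were above 0 and 113 below, with a median of 0.0085. The direction of the metabolic genes thus rested on PBS 12 and differed between all 8 arrays and the day that holds both treatments.

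By function, medians over 8 arrays were 0.36 for fatty acid and triglyceride synthesis, 0.30 for pericentral hepatocyte genes, 0.24 for drug-metabolising enzymes, 0.22 for glucose metabolism, 0.17 for urea cycle and amino acid catabolism and 0.13 for oxidative phosphorylation. Without PBS 12 they were 0.15, 0.14, 0.09, 0.00, -0.15 and -0.02. On scan day 2 they were -0.49, -0.17, -0.20, -0.49, -0.52 and -0.11. All 24 oxidative phosphorylation genes had estimates above 0 and PBS 12 was the lowest PBS array in all 24. Lect2, a pericentral hepatocyte chemokine-like protein, was the only 1 of 15 pericentral members tested that was without overlap. It was at 5.23, 4.36, 5.08 and 4.66 against 5.27, 5.43, 5.53 and 5.41 (0.58 ± 0.19). As 1.66% of all genes were higher without overlap, 1 such member is near that share. Abcb11, the bile salt export pump, differed by 0.52 ± 0.21. Alb, the serum albumin gene, was at 9.67, 9.00, 9.72 and 9.42 in PBS livers and at 9.24, 9.51, 9.65 and 9.62 in ADSC livers (0.05 ± 0.18). Fasn and Scd1, enzymes of fatty acid synthesis and desaturation, differed by 0.53 ± 0.56 and 0.49 ± 0.30, and on scan day 2 by -1.39 and -0.41. The lipid droplet genes Cidec and Cidea went opposite ways, 0.72 ± 0.25 and -1.50 ± 0.58, with overlapping groups.

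**Figure D4:**
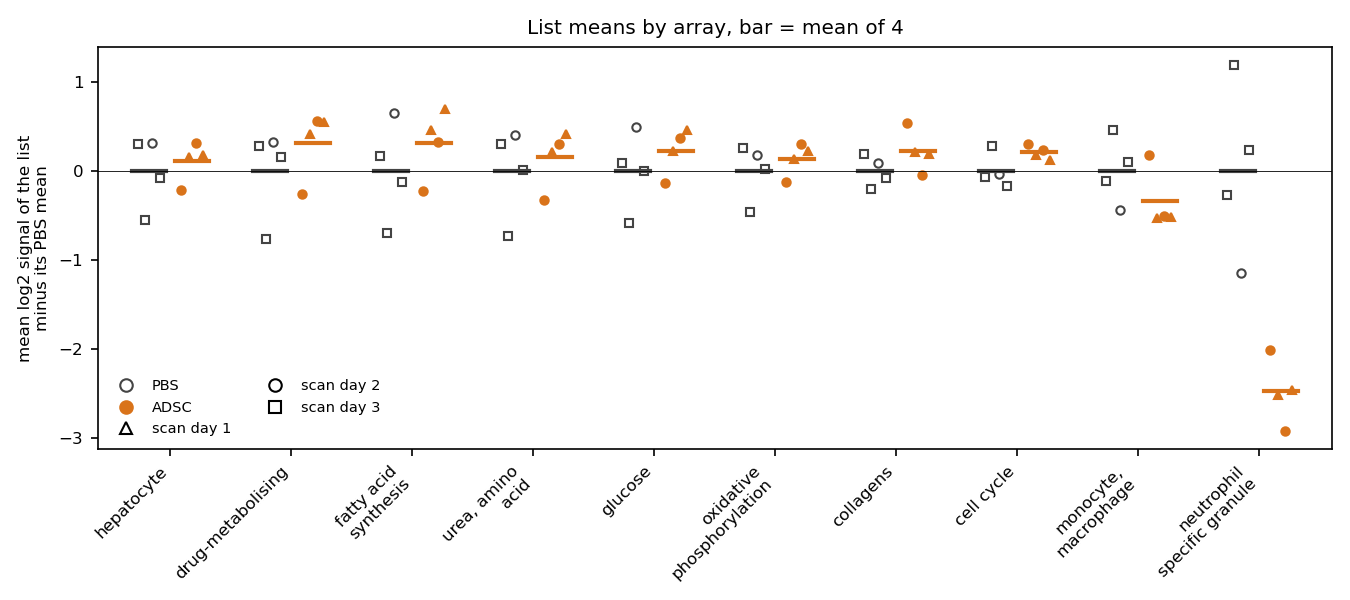
Mean level of 10 gene lists in each of the 8 liver arrays minus the list's mean over the 4 PBS arrays (y axis, log2), PBS in grey and ADSC in orange, with symbols for scan day and bars for the mean of 4. PBS 12 (the lowest grey square) lies lowest in each of the 6 metabolic lists at the left, and the neutrophil list at the right is the only one shown in which the groups are separate.

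Cell cycle genes had higher estimates in 20 of 22 members tested, with a median of 0.15. At an unadjusted p under 0.05, 6 were higher (2.6% of all genes were) and 2, Foxm1 and Ccnb2, were without overlap (1.66%). Foxm1, a mitotic transcription factor, was at -2.80, -2.87, -2.60 and -3.09 in PBS livers and at -2.48, -2.53, -2.24 and -2.55 in ADSC livers (0.39 ± 0.13). Ccnb2, a mitotic cyclin, differed by 0.52 ± 0.18, and Kif20a, a kinesin of cytokinesis, by 0.71 ± 0.25 with overlapping groups. On scan day 2 the list median was 0.23, and without PBS 12, which was the highest PBS array in 16 of the 22 genes, it was 0.20, with 9 members higher at an unadjusted p under 0.05 (2.44% of all genes) and 1 lower. Among growth factor genes Hgf, the hepatocyte growth factor, differed by 0.12 ± 0.11. Gpc3, an oncofetal glypican, was at -2.33, -2.19, -2.52 and -2.19 against -1.40, -1.80, -2.03 and -1.90 (0.53 ± 0.16), without overlap. Atf3, a stress-induced transcription factor, differed by 0.39 ± 0.12, also without overlap. The mesothelial gene Msln was lower, -0.94 ± 0.28, and was the only 1 of 6 members tested on its list that lay below without overlap (1.21% of all genes did). That list of mesothelial and splenic capsule genes leaned the other way, with 4 of 6 estimates above 0 and a median of 0.27.

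**Figure D5:**
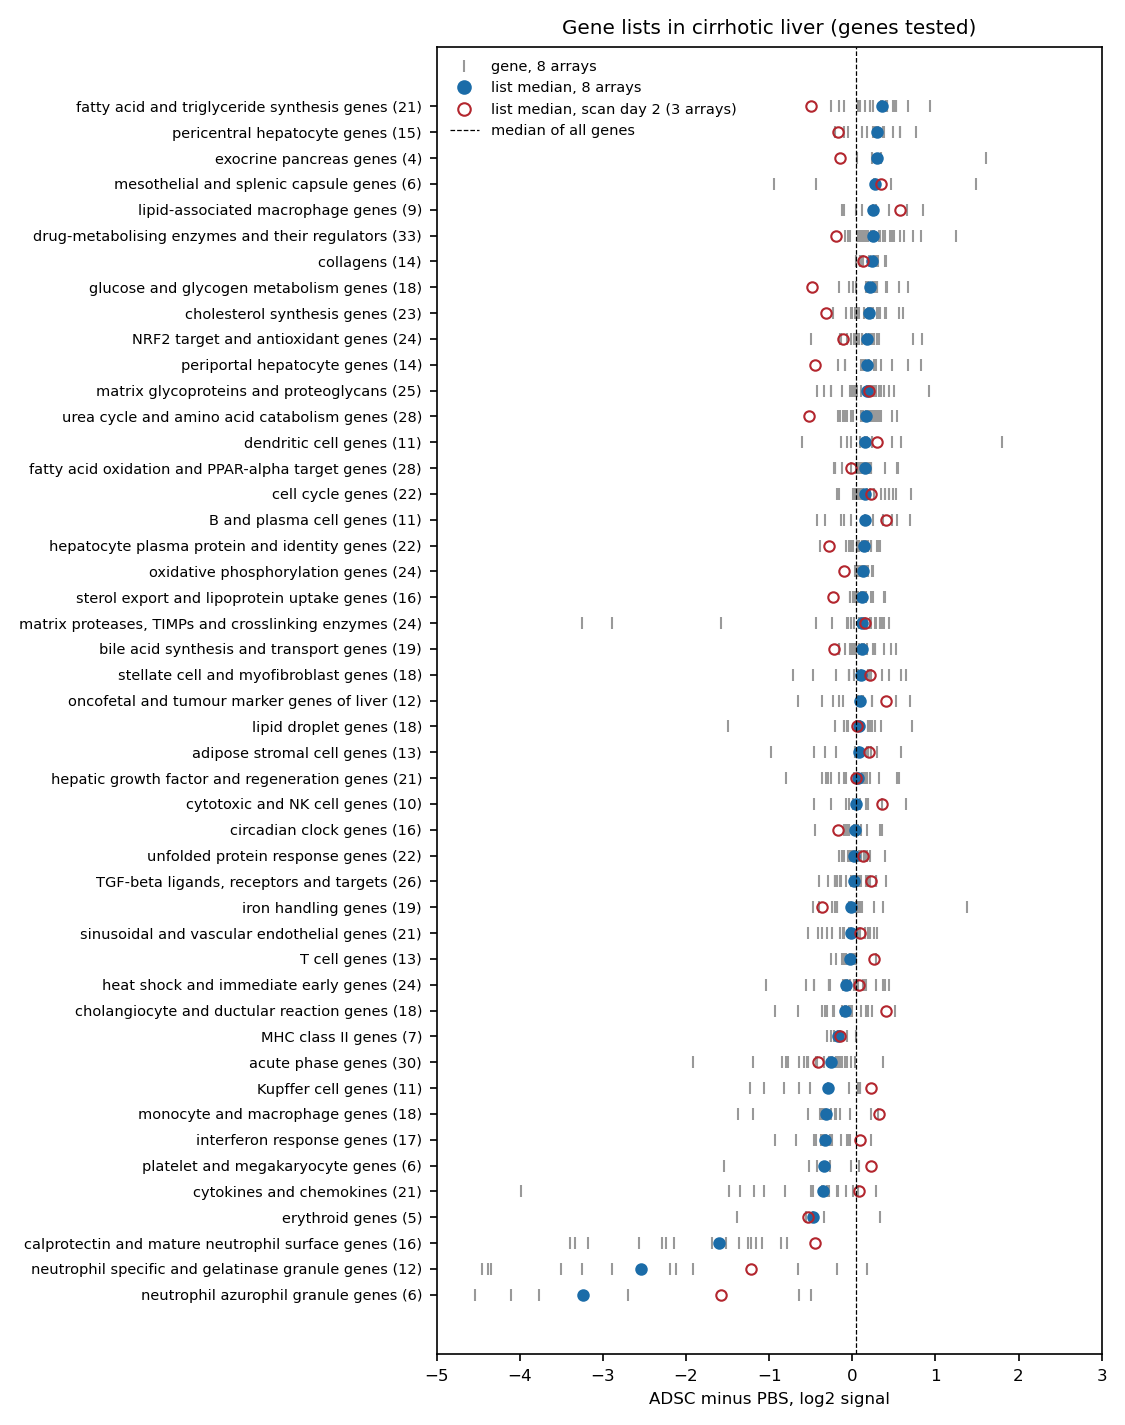
Difference between ADSC and PBS livers (x axis, log2) for each gene of the 47 lists (grey ticks) with the list median over 8 arrays (filled blue) and on scan day 2 (open red, 3 arrays), beside the median of all genes (dashed line). The 3 neutrophil lists are the only ones with blue medians below -1, and their red medians lie nearer to 0, whereas the red median of the acute phase list lies further from 0 than the blue one.

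The liver effect was last compared with that in hepatic inflammatory cells, in 1 limma fit of all 16 arrays. Of 22050 genes tested, 7 (0.0317%) had an adjusted p under 0.05 for the difference between the effects, and all 7 were more negative in inflammatory cells. None of the 34 neutrophil genes was among them: their median difference was -2.17 in liver and -2.52 in inflammatory cells, and 6 of the 34 had an unadjusted p under 0.05 (10.1% of all genes had). Mpo differed by -4.54 in liver and by -4.18 in inflammatory cells, Ngp by -4.46 and -4.37, and Ltf by -4.35 and -4.44. A p that misses the threshold does not show that these effects were equal. Acute phase genes had medians of -0.25 in liver and 0.09 in inflammatory cells. Of the 7 genes, the peroxidase gene Prdx5 was at 4.00 ± 0.09 and 4.01 ± 0.14 in PBS and ADSC livers (SD, n = 4 each) and 1.75 lower after ADSC in inflammatory cells. Cdk1, the kinase that drives mitosis, differed by 0.49 in liver and by -1.86 in inflammatory cells (limma adjusted p of the difference = 0.0479). Cell cycle medians were 0.15 and -0.71, and 12 of 22 members had an unadjusted p under 0.05 for the difference. The count of 7 rested on the liver arrays used, since without any 1 of PBS 12, PBS 13, PBS 14, ADSC 7, ADSC 8 or ADSC 10 it was 0.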

How the data were processed

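Each sample has 1 scanner file of an Agilent 1-colour array of total RNA labelled with Cy3. The processed signal is an intensity that Agilent Feature Extraction 10.5.1.1 background-subtracted within each array, per the file headers, with no normalization between arrays. The deposited value table holds the same intensity values (largest difference 0) and was not a separate alternative. The median spot and background intensities, per the file headers, served the normexp alternative, for which a mean signal had been planned. Each array held 43379 non-control spots. Outlier spots (95 to 124 per liver array) were left out, and 0 were saturated. The log2 signal minus the array's 75th percentile was averaged over a probe's spots. Of 41174 probes, 23366 were named by RefSeq accession (16531 symbols) and 17808 kept the file's name. A gene was represented by its brightest probe, judged by the mean of the liver arrays, and a gene entered a fit where at least 4 of its arrays had it well above background. Where this held for no array of a group, a fold is given only as a lower bound ("at least"). In it, each array of the dim group counts at its own signal or, if that is lower, at the weakest signal that any probe well above background had there.

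The tests used limma 3.58.1 in R 4.3.3 (lmFit, eBayes, two-sided, Benjamini-Hochberg over all genes, threshold 0.05), ± is the fit's SE unless marked SD, and the scripts were tested on simulated data. The difference from inflammatory cells was a contrast over all 16 arrays. Alternatives changed the background correction, scaling, filter, probe summary, variance model, weights, scan day, slide, brightness, the arrays left out and the replicate number as a block. Chosen after seeing the data were the values within scan day 2, the medians of the same members without PBS 12 and the counts without genes above background in only 1 group. Members and gene lists were chosen with earlier results of these data known. Named genes were the 10 with the smallest p and the 10 largest differences without overlap in each direction, the 3 members of each list with the smallest p, 15 genes of liver function, fibrosis and inflammation, and the 5 smallest p in each direction of the interaction. Others are marked as named after their values were seen. Promoters are the RefSeq GRCm38.p6 sequences of 250 bases before the start, the array's own build being another, so no probe positions are given.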

Additional observations from a re-analysis of the deposited data

Results flagged for a closer look

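Single arrays stood far from the other 3 of their group by Dixon's criterion in 12 of 240 groups of 4 values examined (5%), which is the share that chance gives, about 1 in 20, so the 12 are listed as values only. ADSC 7 was high in Ms4a3 (-3.99 against -5.82 to -5.51 in the other ADSC arrays), in Col1a1 (4.33 against 3.49 to 3.54) and in the mean of monocyte and macrophage genes (2.32 against 1.60 to 1.63). It was low in Abcb11 (5.22 against 5.99 to 6.14) and in the means of pericentral hepatocyte genes (1.62 against 2.26 to 2.38) and of bile acid synthesis and transport genes (1.99 against 2.60 to 2.71). PBS 12 was low in Tpm2 (-1.09 against -0.82 to -0.79 in the other PBS arrays) and in the means of drug-metabolising enzymes (3.85 against 4.77 to 4.93), fatty acid oxidation and PPAR-alpha target genes (3.00 against 3.37 to 3.37) and NRF2 target genes (3.96 against 4.78 to 4.91). PBS 13 was low in Ccl2 (3.23 against 3.66 to 3.69), and ADSC 8 was high in Orm1 (5.41 against 5.22 to 5.25).

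The effect of ADSC differed between inflammatory cells and liver in 7 genes by the limma interaction term, adjusted over all genes. The effect in inflammatory cells minus that in liver was -2.04 for Mfsd7a, -1.76 for Prdx5, -3.93 for Ppp1r42, -1.96 for Smim5, -2.11 for Dstn, -2.35 for Cdk1 and -2.77 for BC049694. In liver the differences of these 7 genes ran from -0.10 (Mfsd7a) to 0.74 (BC049694), and none of the 7 passed the adjusted threshold there. The count of such genes depended on single liver arrays.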

How the results depend on the processing

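The count of genes passing in liver was 0 under every alternative run except the mean of a gene's probes (1), array weights (18) and the spread estimated over all 16 arrays (9), and 0 to 0 with each array left out. At an unadjusted p under 0.05 the count with an array left out was 472 to 1344. The count of 7 for the difference between liver and inflammatory cells became 33 with normexp, 61 with normexp and quantile normalization, 1 with the 75th percentile over detected probes, 22 with quantile normalization, 66 with probes above background on all arrays, 38 with trend and robust eBayes, 900 with array weights, and 0 with no filter, with slide as a fixed block and with scan day in the model, and 0 to 44 with an array left out. With the replicate number as a block it was 0 (2033 genes at an unadjusted p under 0.05). Same-numbered liver and inflammatory cell arrays deviated together at correlations of -0.06 to 0.17, and 4 of 8 correlated best with their own number. These values cannot show whether the numbers pair the samples, since whole liver and isolated cells of 1 animal may deviate separately.

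The azurophil median was -1.47 with normexp, -1.39 with normexp and quantile normalization, -0.64 over the 3 members above background on all arrays, -1.58 with scan day, -0.77 with slide as a fixed block and -3.45 to -1.70 with an array left out. The specific granule median was -1.22 with scan day and -0.79 with slide, the mature neutrophil median -0.45 and -0.13, and the acute phase median -0.43 with slide. With an array left out these 3 medians ran from -3.07 to -1.94, -1.91 to -1.09 and -0.33 to -0.21. None of the 4 medians changed sign under any alternative run. Of all 47 list medians, 24 changed sign with scan day as a term, 27 with slide as a fixed block and 11 without PBS 12. The scan day estimates rest on day 2 alone, and the slide estimates on ADSC 7 against PBS 13.

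Single genes that changed sign with scan day as a term were Il1b 0.086, Ccl2 0.15, Cd14 0.076, Clec4f 0.10, Timp1 0.64, Tgfb1 0.11, Alb -0.27, Fasn -1.39, Scd1 -0.41, Cidea 0.35 and Ppbp 0.21, and with slide as a fixed block Il1b 0.29, Ccl2 0.060, Cd14 0.21, Marco 0.030, Timp1 1.02, Tgfb1 0.35, Alb -0.48, Abcb11 -0.30, Fasn -1.81, Scd1 -0.59, Cidea 0.72, Hgf -0.064 and Ppbp 0.34. Timp1 and Alb were at 0.095 and -0.027 with slide as a random block and at 0.021 and -0.019 with array brightness as a covariate, and Acta2 at 0.050 with array weights. With an array left out Acta2 ran from -0.13 to 0.055, Timp1 from -0.21 to 0.11, Tgfb1 from -0.16 to 0.052 and Alb from -0.097 to 0.14. The cause of these changes was not tested. Signal over background limits dim members: a probe near background on the ADSC arrays gives only a bound there, and the number of arrays limits the precision of all values.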

Other observations

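Some gene groups with no place in the comparison above had medians close to that of all genes over the 8 arrays. TGF-beta ligands, receptors and targets had a median of 0.02 over 26 genes, unfolded protein response genes 0.02 over 22, circadian clock genes 0.04 over 16, sinusoidal and vascular endothelial genes -0.02 over 21 and iron handling genes -0.01 over 19. These 5 medians were, within scan day 2, 0.23, 0.13, -0.18, 0.09 and -0.36, and with slide as a fixed block 0.40, 0.18, -0.20, 0.30 and -0.49. Igfbp1, a hepatocyte gene responsive to fasting and stress, was at 4.27, 5.52, 3.88 and 5.10 in PBS livers and at 5.47, 5.21, 5.42 and 4.91 in ADSC livers. Its difference was 0.56 ± 0.34 over 8 arrays and 1.57 on scan day 2. MHC class II genes had lower estimates in 6 of 7 members, with a median of -0.17 on all arrays and -0.15 on scan day 2, and in inflammatory cells the median was 0.58. Cholangiocyte and ductular reaction genes had a median of -0.08 on all arrays and 0.40 on scan day 2.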
